A study of Mus musculus with 20 samples.

Results

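Binding of ATF4 was described at 10 genes of mesenchymal identity: Snai1, Snai2, Twist1, Twist2, Zeb1, Zeb2, Runx1, Runx2, Prrx1 and Loxl2, out of 21631 protein-coding genes. They were chosen by peak width, since Snai2, Runx2 and Loxl2 hold some of the widest ATF4 peaks of these data, so the positions, widths and overlaps of their peaks are given as a description, with no test. The cells were C2C12, a line of mouse myoblasts of wild-type (WT) genotype, kept for 6 h in the solvent DMSO or in 100 nM thapsigargin, which blocks the calcium pump of the endoplasmic reticulum and sets off the integrated stress response. ATF4 was mapped by CUT&Tag, in which an antibody directs a transposase to the bound protein and the DNA beside it is tagged and sequenced. The labels name 2 ATF4 libraries per treatment, without saying whether they came from separate cultures. The authors gave 1 peak list per treatment, with 803 peaks for DMSO and 8619 for thapsigargin, so no value below has a replicate error. The read depth is unknown. A longer list and a wider peak can come from deeper reads or a looser threshold as well as from more binding, and these cannot be told apart here. The other 8 groups of the series were not analysed here.

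Epithelial cells turn mesenchymal under a small set of DNA-binding repressors and activators. The zinc finger proteins of the Snail and ZEB families and the bHLH proteins of the Twist family bind E-boxes and shut down E-cadherin and other junction genes, RUNX factors bind DNA with their partner CBFβ and direct blood and bone formation, and PRRX1 is a homeodomain factor of limb and skeletal mesenchyme. LOXL2 is a secreted amine oxidase that crosslinks collagen and elastin, and has also been described as a partner of Snail. Myoblasts are themselves mesenchymal, and Twist, Snail and ZEB factors are known to hold back the muscle program of MyoD. ATF4 binds DNA as a dimer, often with a C/EBP partner, at a composite of a C/EBP and an ATF site.

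In thapsigargin, 33 ATF4 peaks lay in or around these genes. A peak was assigned by its centre: 1 was at a gene end, which means within 1 kb of either end, 16 were further inside a gene, and 16 were outside within 150 kb of an end. In DMSO there were 6 peaks, none at a gene end, 5 inside a gene and 1 outside. Thapsigargin peaks in the body or at an end were found at 8 of the 10 genes, and DMSO peaks at 4, namely Twist2, Runx1, Runx2 and Prrx1. Over all protein-coding genes, 23.4% had a thapsigargin peak in the body or at an end and 2.57% had a DMSO peak there. At a gene end the count was 1 of 10 in thapsigargin, against 15.1% of all protein-coding genes, and 0 of 10 in DMSO, against 1.29%, so the counts at gene ends were near those of genes in general. With the 150 kb on either side included, 9 of the 10 genes had a thapsigargin peak and 5 had a DMSO peak, against 72.3% and 17.0% of all protein-coding genes, so most genes pass at that reach.

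**Figure D1:**
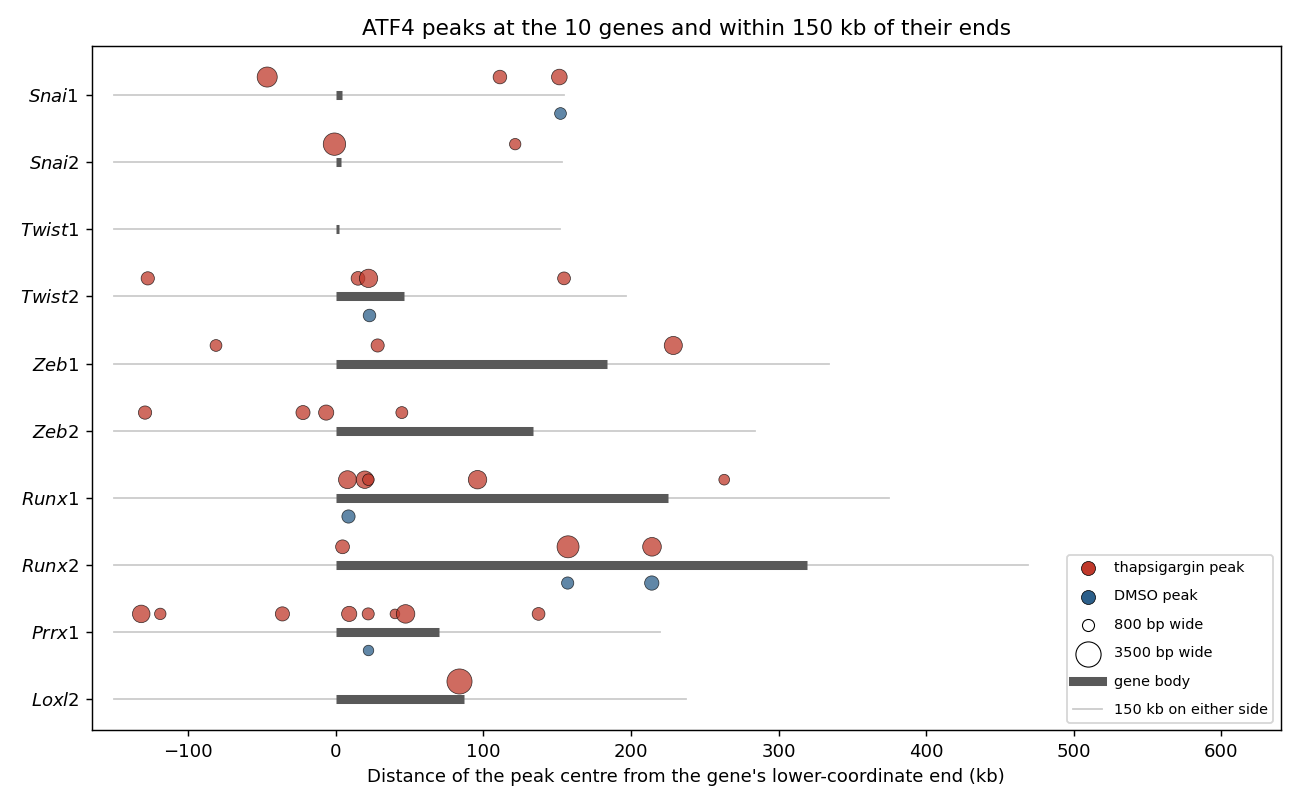
Each row is one gene drawn to scale in kb from its lower-coordinate end, with the gene body as a thick bar and 150 kb on either side as a thin line; circles are the centres of thapsigargin peaks (red, above) and DMSO peaks (blue, below), with the area in proportion to peak width. Prrx1 holds 8 thapsigargin peaks within reach and Twist1 none. DMSO peaks are seen within reach of 5 of the 10 genes, and the one near Snai1 lies over Cebpb.

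Sequence could be set beside a peak at Runx1. RefSeq's promoter table (GRCm38.p6, the assembly that mm10 corresponds to) had entries for 7 of the 10 genes, namely Snai1, Twist1, Twist2, Zeb2, Runx1, Runx2 and Prrx1, with 11 start sites in all. Runx1 is read on the minus strand from a distal start at 92826074 and a proximal start at 92697329 on chromosome 16. The proximal start was the only one of the 11 that an ATF4 peak covered. The 250 bases before each of the Runx1 starts are shown so that the covered and the uncovered promoter can be compared, with matches to the motifs searched in capitals.
Runx1 proximal start (chr16:92697330-92697579, minus strand, inside a thapsigargin peak): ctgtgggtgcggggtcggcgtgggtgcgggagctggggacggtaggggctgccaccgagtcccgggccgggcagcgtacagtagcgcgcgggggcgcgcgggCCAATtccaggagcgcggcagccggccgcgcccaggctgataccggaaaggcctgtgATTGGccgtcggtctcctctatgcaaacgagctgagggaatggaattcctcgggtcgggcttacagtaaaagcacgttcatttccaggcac
Runx1 distal start (chr16:92826075-92826324, minus strand, no peak): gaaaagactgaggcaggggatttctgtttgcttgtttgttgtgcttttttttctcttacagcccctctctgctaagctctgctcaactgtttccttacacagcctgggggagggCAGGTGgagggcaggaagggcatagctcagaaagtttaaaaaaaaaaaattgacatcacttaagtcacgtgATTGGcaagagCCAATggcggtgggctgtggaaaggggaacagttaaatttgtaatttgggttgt
The proximal stretch has a GC content of 67.6% and the distal one 45.6%. Each holds 2 CCAAT boxes (CCAAT, or ATTGG on the other strand), the sites of the factor NF-Y, which begin 148 and 91 bases before the proximal start and 65 and 54 bases before the distal one. The distal stretch also holds CAGGTG, the E-box read by Snail and ZEB proteins.

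The search covered both strands for 7 motifs, and no 2 of the matches shown overlap. The core of the composite C/EBP-ATF element (TGATGNAA), the cyclic AMP response element (TGACGTCA), the AP-1 site (TGANTCA), the C/EBP site (TTGCNNAA) and the RUNX site (TGTGGT) had no match in either Runx1 stretch. Of all 32851 such stretches in the table, 3.45% hold TGATGNAA, 1.55% TGACGTCA, 6.75% TGANTCA, 9.56% TTGCNNAA, 14.0% TGTGGT, 17.2% CACCTG or CAGGTG and 33.8% a CCAAT box. Among the 2602 stretches that lie inside a thapsigargin peak (7.92%), 4.23% hold TGATGNAA, against 3.39% of the rest, so a covered promoter without the composite core, as at Runx1, is the usual case. TGACGTCA was found in 4.34% of the covered stretches and 1.31% of the rest, and a CCAAT box in 42.1% and 33.1%. The other 4 motifs were in fewer covered stretches than others: 4.38% and 6.95% for TGANTCA, 6.8% and 9.8% for TTGCNNAA, 10.0% and 14.4% for TGTGGT, and 11.4% and 17.7% for CACCTG or CAGGTG. These shares are given as a description. TGATGNAA and TGACGTCA were in none of the 11 stretches of these genes, which says little at shares of 3.45% and 1.55%. TTGCNNAA was found before the starts of Twist2 and Runx2 and 1 start of Zeb2. TGANTCA was found before another Zeb2 start, TGTGGT before that of Runx2, and CACCTG or CAGGTG before that of Snai1 and the distal one of Runx1. A CCAAT box lay before the starts of Snai1, Twist1 and Twist2, both of Runx1 and 1 of Zeb2. A missing match concerns these letters in this window only, and most of each peak lies outside the window.

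Of the Snail family, Snai2 and Snai1 differed in where ATF4 was found. Snai2, which encodes Slug (chromosome 16, 14705852 to 14709395, 3.54 kb long), carried the only peak at a gene end among the 10 genes. It spanned 14703723 to 14706488 in thapsigargin, 2766 bp, rank 11 of 8619 by width. Its centre lay 746.5 bp outside the lower-coordinate end, and of its length 2129 bp were outside the gene and 637 bp inside it. The DMSO list had no peak within 150 kb of Snai2, and the nearest was 176 kb away (14884374 to 14885718, 1345 bp). The other thapsigargin peak within reach, 720 bp wide at 14827153 to 14827872, lay 118 kb away and nearer to Efcab1. Snai2 is a short gene, and among 3983 genes within a factor of 2 of its length 13.5% had at least 1 thapsigargin peak in the body or at an end.

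Snai1, which encodes Snail (chromosome 2, 167538195 to 167542814), had no peak in its body or at its ends in either condition. In thapsigargin, 3 sites lay within 150 kb, each inside another protein-coding gene. The widest, 2227 bp at 167490788 to 167493014, was inside Spata2, 46.3 kb from Snai1, with an end of Rnf114 within 1 kb of its centre. A peak of 1023 bp was inside Tmem189. The last lay over Cebpb, which encodes a bZIP partner of ATF4, 147 kb from Snai1. It was also the only DMSO peak near Snai1, with 767 bp in DMSO and 1355 bp in thapsigargin.

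The Twist genes, which differ in length, also differed in their peaks. Twist1 (chromosome 12, 33957671 to 33959831) was the only gene of the 10 with no peak within 150 kb in either list. Its nearest thapsigargin peak, 1104 bp wide at 34194463 to 34195566, was 235 kb away inside Hdac9, and its nearest DMSO peak was 1520 kb away near Ccdc71l. Twist2, which encodes Dermo1 (chromosome 1, 91801461 to 91848034, 46.6 kb), held 2 thapsigargin peaks in its body. The wider, 1858 bp at 91822872 to 91824729, lay 22.3 kb from the start of the gene and overlapped the DMSO peak of 875 bp. The narrower, 1040 bp at 91816139 to 91817178, lay 15.2 kb from the start and 5.69 kb from its neighbour, with no DMSO peak. Both also lay within Gm46117, a long noncoding RNA gene. Of 6411 genes within a factor of 2 of the length of Twist2, 4.54% had 2 or more thapsigargin peaks in the body or at an end and 3.2% had a DMSO peak there. Its flanks held peaks of 972 bp, nearer to Asb1, and of 907 bp, inside Hdac4.

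At the ZEB genes the peaks were mostly of ordinary width and were seen in thapsigargin alone. Zeb1 (chromosome 18, 5591327 to 5775468, 184 kb) had 1 peak in its body, 955 bp wide at 5619355 to 5620309, below the list's median of 1037 bp. A wider one of 1809 bp, in the upper 10% of the list, lay 44.6 kb outside the higher-coordinate end at 5819172 to 5820980, and 1 of 772 bp lay 81.0 kb outside the other end, within the noncoding gene Gm10125. Zeb2 (chromosome 2, 44983512 to 45117442, 134 kb) had 1 body peak of 788 bp at 45028002 to 45028789, at least 81.9 kb from each of its 4 annotated starts. Beyond the lower-coordinate end of Zeb2, which is the 3' end as the gene is read on the minus strand, lay peaks of 1270 bp at 6.35 kb and of 1099 bp at 22.1 kb. Both had Zeb2 as the nearest protein-coding gene. A further peak of 979 bp was inside Gtdc1. The nearest DMSO peaks were 507 kb from Zeb1 and 6200 kb from Zeb2. Among genes of like length, 43.9% of those near Zeb1 and 39.6% of those near Zeb2 had at least as many body or end peaks, so these counts are common at such lengths.

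The RUNX genes held several wide peaks each and shared sites with DMSO. Runx1, a master regulator of blood stem cells (chromosome 16, 92601466 to 92826074, 225 kb), had 4 thapsigargin peaks in its body. The peak over the proximal start, shown above by its sequence, was the widest of these with 1879 bp at 92696678 to 92698556, of which 1227 bp lay upstream of the start and 651 bp downstream. It had no DMSO overlap, and the nearest DMSO peak was centred 87.6 kb from that start. The other body peaks, of 1778, 1681 and 750 bp, lay together between 92608652 and 92624093 toward the 3' end, with gaps of 10.0 and 1.22 kb, and the first of these overlapped the DMSO peak of 968 bp. The distal start of Runx1 was 38.6 kb from the nearest peak centre, a peak of 638 bp outside the gene. Of 1802 genes within a factor of 2 of its length, 3.33% had 4 or more thapsigargin peaks in the body or at an end.

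Runx2, which directs osteoblast formation (chromosome 17, 44495987 to 44814797, 319 kb), was the only one of the 10 genes with 2 DMSO peaks. The wider thapsigargin site, 2674 bp at 44652114 to 44654787, ranked 20 of 8619 by width, while the DMSO peak within it was 827 bp wide and ranked 423 of 803. At the other site the DMSO peak was 1131 bp wide, the widest of the 6, and the thapsigargin peak spanned 44709348 to 44711268, 1921 bp. The sites lay 54.6 kb apart, 161 and 104 kb from the only Runx2 start in the promoter table. That start had no peak within 100 kb, and any other start of Runx2 was not examined. The remaining thapsigargin peak of 1057 bp at 44500182 to 44501238 lay 4.72 kb inside the lower-coordinate end, which is the 3' end of the gene. In the flanks of Runx2 there was none. Genes with 3 or more thapsigargin peaks in the body or at an end, as at Runx1, Runx2 and Prrx1, made up 1.20% of all protein-coding genes, but such counts are more common in long genes: of 1202 genes within a factor of 2 of the length of Runx2, 12.1% had at least 3. At least 2 DMSO peaks in the body or at an end were found at 15 of 21631 protein-coding genes (0.0693%), and at 9 of 1202 genes within a factor of 2 of the length of Runx2 (0.749%). Runx2 itself is counted in both.

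Prrx1 (chromosome 1, 163245119 to 163315145, 70.0 kb) had the most peaks of the 10 genes, with 4 thapsigargin peaks in its body and 4 in the flanks. The body peaks were 1279, 808, 519 and 1895 bp wide, in order along the chromosome, with gaps of 11.8, 17.4 and 5.99 kb. The widest, at 163291579 to 163293473, was the nearest to the annotated start, 21.1 kb away. The centres of this peak and of the 519 bp peak also lay within Gm20471, a long noncoding RNA gene. That of the 519 bp peak lay within LOC108167740 too, another such gene. The DMSO peak, 612 bp wide at 163266977 to 163267588, lay inside the peak of 808 bp, so at Prrx1 the site present in both lists was not the widest one. In the flanks the widest peak was 1702 bp at 163112640 to 163114341, nearer to Mroh9, and only the peak of 1110 bp 36.0 kb from the gene had Prrx1 as its nearest gene. The remaining ones, of 728 and 904 bp, were nearer to Mroh9 and Gorab. At least 4 thapsigargin peaks in the body or at an end were found at 0.430% of all protein-coding genes, and at 9 of 5095 genes (0.177%) within a factor of 2 of the length of Prrx1. Prrx1 itself is counted in both.

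Loxl2 (chromosome 14, 69608692 to 69695834, 87.1 kb) had a lone peak, and it was rank 2 of 8619 by width. It spanned 69690633 to 69694117, 3485 bp, wholly inside the gene, with its centre 3.46 kb and its nearer edge 1717 bp from the higher-coordinate end. An end of the microRNA gene Mir6950 lay within 1 kb of the centre. No other thapsigargin peak was found within 150 kb of Loxl2, and the next was 333 kb away. The DMSO list had none within 150 kb, and the nearest, 464 bp wide, was 1430 kb away near Gfra2. By number, 1 peak is common at this length: 35.5% of 4366 genes within a factor of 2 had at least as many.

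**Figure D2:**
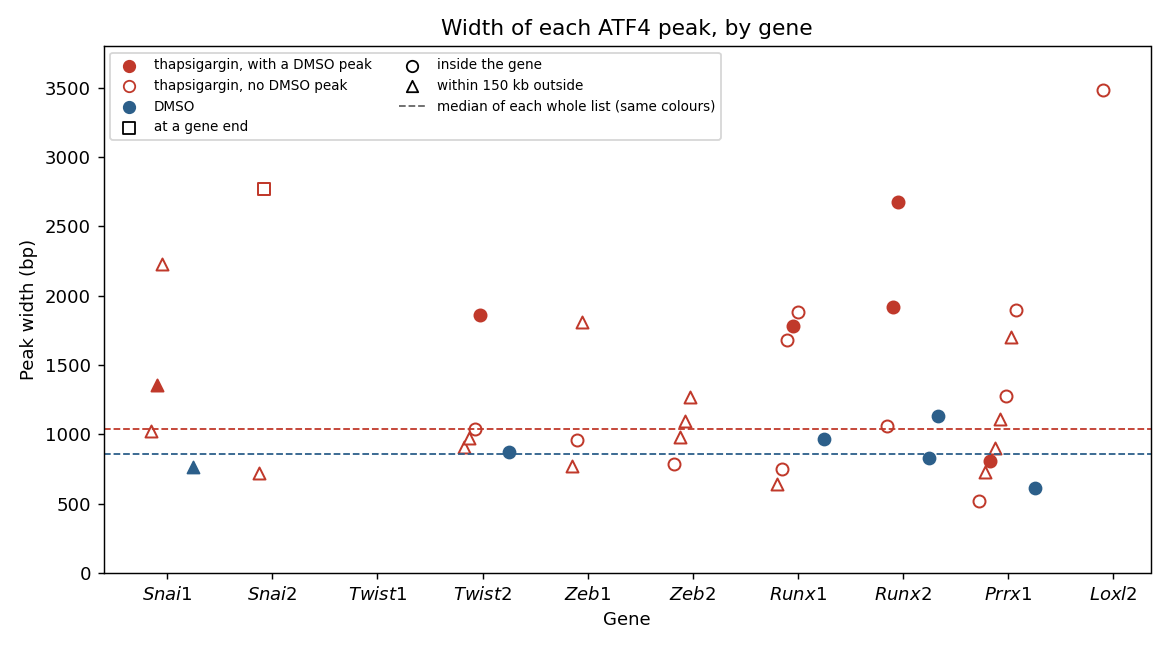
Peak width in bp on the vertical axis for every ATF4 peak of each gene; red symbols are thapsigargin peaks, filled where a DMSO peak overlaps, blue symbols are DMSO peaks, the shape gives the place, and dashed lines are the medians of the whole lists (1037 bp in thapsigargin, 856 bp in DMSO). The peaks of Loxl2, Snai2 and the wider site of Runx2 are the widest, with 3485, 2766 and 2674 bp, and the 6 DMSO peaks lie between 612 and 1131 bp.

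By width, the members of the set ranged widely. The 33 thapsigargin peaks had a median of 1099 bp, from 519 bp at Prrx1 to 3485 bp at Loxl2, against a median of 1037 bp over the list. The 17 peaks in a body or at an end had a median of 1681 bp and the 16 flanking peaks 1001 bp. In the upper 10% of the list were 9 of the 17 and 3 of the 16. Those 9 fell in Snai2, Twist2, Runx1, Runx2, Prrx1 and Loxl2, whereas the body peaks of Zeb1 and Zeb2 were below the list's median. Widths near these genes were part of how the genes were picked, so the median and counts are given for description. Of the 16 flanking peaks, 10 had another protein-coding gene nearer than the listed one, and 5 of these lay inside that gene. The 6 with the listed gene as the nearest were at Zeb1, Zeb2, Runx1 and Prrx1. The same shares were not counted over all protein-coding genes, so these counts are not called high or low. The peaks closest to the limits used were the one at Snai2 (746.5 bp) and that in Loxl2 (3459 bp) for the 1 kb limit, and that over Cebpb near Snai1 (147 kb) and the next beyond Snai2 (176 kb) for the 150 kb limit.

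The 6 sites found in both lists had the same form throughout: the DMSO peak lay wholly inside a wider thapsigargin peak. At the genes themselves these were 1 site in Twist2, 1 in Runx1, 2 in Runx2 and 1 in Prrx1, and the sixth was over Cebpb near Snai1. The ratio of thapsigargin to DMSO width was 3.23 and 1.7 at the Runx2 sites, 2.12 at Twist2, 1.84 at Runx1, 1.77 at the Cebpb site and 1.32 at Prrx1. The added width was not even on both sides. At the Cebpb site both peaks ended at the same base and the thapsigargin peak reached 588 bp further on the lower side, and at the wider Runx2 site it reached 661 bp further on the lower side and 1186 bp on the upper side. Centres were 54 to 294 bp apart. The nesting and the width ratios were not computed over the whole lists, so neither is read as particular to these genes. All 6 DMSO peaks were overlapped by a thapsigargin peak, as were 99.5% of the whole DMSO list. Of the 33 thapsigargin peaks 6 (18.2%) overlapped a DMSO peak, against 9.25% of the whole list. Within a body or at an end, the 5 shared peaks had a median width of 1858 bp in thapsigargin and the 12 others 1168 bp. The 2 widest of the set, at Loxl2 and Snai2, were among the latter 12. Width and overlap were part of how the genes were picked, and the same split was not made over the whole list.

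**Figure D3:**
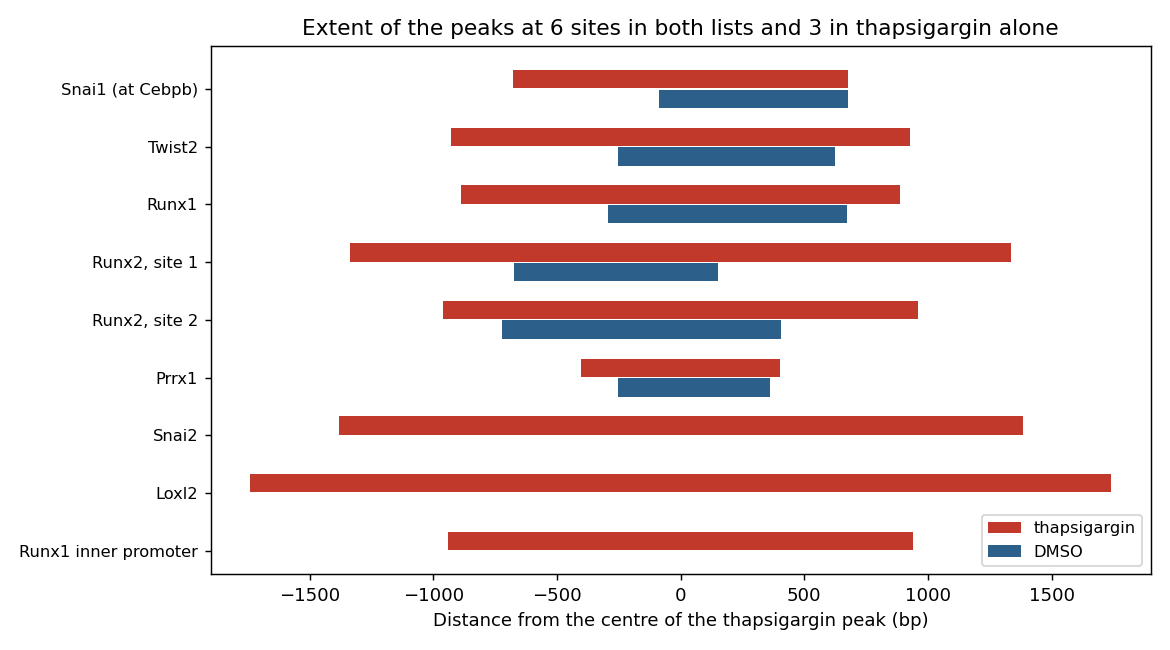
Horizontal bars give the extent of the thapsigargin peak (red) and the DMSO peak (blue) in bp from the thapsigargin peak's centre, for the 6 sites in both lists and for Snai2, Loxl2 and the proximal promoter of Runx1, which have no DMSO peak. Every DMSO peak lies inside the red bar above it, and the Loxl2 bar is the longest with 3485 bp.

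Counts per gene are set beside gene length here, since longer genes had peaks more often over the whole annotation. The 3 genes under 5 kb, Snai1, Snai2 and Twist1, held 1 peak in all, and the 7 genes over 40 kb held the other 16 thapsigargin body peaks and all 5 DMSO body peaks. Summed over 1.08 Mb, the 10 genes had 15.8 thapsigargin and 4.65 DMSO peaks per Mb of gene, against 6.06 and 0.548 per Mb over all protein-coding genes. The 10 genes were chosen with their peaks known, and gene length differs between the sets, so nothing is read from these densities. Among all genes of 30 to 100 kb, 31.5% had a thapsigargin peak and 3.35% a DMSO peak in the body or at an end, and among those of 100 to 300 kb 43.9% and 5.45%. Within the 10 genes the counts did not follow length alone: Prrx1 with 70.0 kb held 4 thapsigargin peaks, and Loxl2, Zeb2 and Zeb1, all longer, held 1 each.

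**Figure D4:**
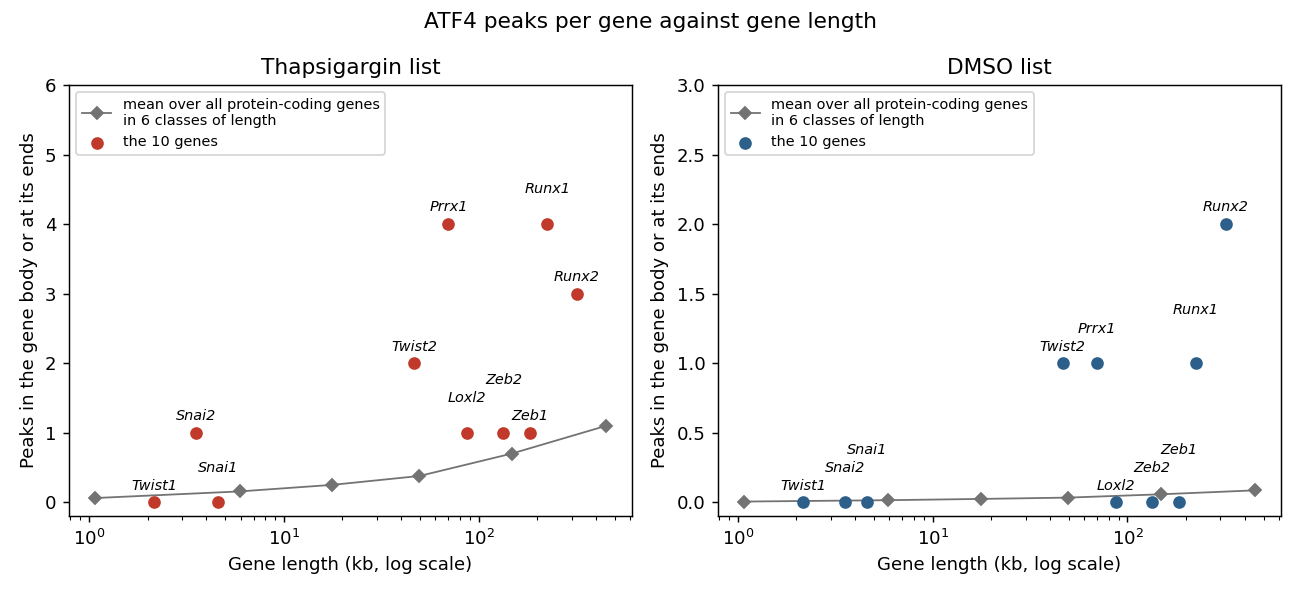
Number of ATF4 peaks in the body or at the ends of each gene against its length in kb on a log axis, for the thapsigargin list (left) and the DMSO list (right); grey diamonds are means over all protein-coding genes in 6 classes of length. Prrx1 and Runx1 with 4 thapsigargin peaks and Runx2 with 2 DMSO peaks lie above the grey line, and Zeb1 and Zeb2 lie near it in thapsigargin.

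Other genes of the same pathways were counted from 7 lists drawn from textbook knowledge, at the same limit of 1 kb from a gene end. The lists were written with earlier results of these data known, so their counts are a description and no independent evidence. The DNA-binding partners, inhibitors and corepressors had a thapsigargin peak at 7 of 18 genes (38.9%), against 15.1% of all protein-coding genes. The 95% Wilson interval of 20.3% to 61.4% covers counting error only. As the list was written with the data known, the interval is no test against the 15.1%. Wwtr1, which encodes the YAP-related coactivator TAZ, had a peak of 2638 bp there, rank 21 of 8619. The others were below the list's median width: Ctbp2, a corepressor bound by ZEB proteins, had 956 bp, the bHLH inhibitor gene Id2 803 bp, the deacetylase gene Hdac2 768 bp, Tcf3, which encodes an E-protein that pairs with Twist, 674 bp, and Id3, another bHLH inhibitor gene, 648 bp. The narrowest, of 294 bp, was at Tcf4, which is named after its value was seen. None of the 18 had a DMSO peak at an end.

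Of the genes that mesenchymal cells express, 4 of 22 had a thapsigargin peak at an end (18.2%), near the 15.1% of all protein-coding genes. That 15.1% is the background for the end counts of the other lists too. The peak at Ccn2, which encodes a matrix-associated growth factor, was 1581 bp wide and that at Fn1 (fibronectin) 1450 bp. Those at the integrin gene Itgb1 and the hyaluronan receptor gene Cd44 were 1434 and 928 bp. Fn1 was the only gene of these 7 lists with a DMSO peak at an end, 1040 bp wide at 71652948 to 71653987 on chromosome 1. As 1.29% of all protein-coding genes had such a peak, nothing particular is read from this 1 gene. TGF-β and BMP signalling, which induces Snail and RUNX genes, had 2 of 21, Skil with 1367 bp and Smad2 with 964 bp. The relatives of the 10 genes, among them Snai3, Runx3, Prrx2, Lox and Loxl1, had 1 of 14, the tendon factor gene Scx with 1166 bp, and the skeletal lineage genes had 1 of 14, the cartilage factor gene Sox9 with 1447 bp. None of 20 epithelial genes, such as Cdh1 (E-cadherin) and Epcam, had a peak at an end, a count of 0 that allows up to 16.1% by the Wilson interval. Of 10 markers of myoblasts, Chrna1, a subunit gene of the acetylcholine receptor, had a peak at an end, of 1485 bp. ATF4 peaks do not measure expression, so they do not check the cell type. With the gene body included, a thapsigargin peak was found at 12 of 18 partners and corepressors, 10 of 21 genes of TGF-β and BMP signalling, 8 of 22 mesenchymal effectors, 3 of 14 skeletal lineage genes, 2 of 14 relatives, 2 of 20 epithelial genes and 1 of 10 myoblast markers, against 23.4% of all protein-coding genes. TGF-β and BMP signalling thus had a smaller share than all genes at ends (9.52%) and a larger one with bodies included, without regard to gene length. In the body or at an end, a DMSO peak was found at 2 of 18 partners and corepressors and 1 of 21 genes of TGF-β and BMP signalling. The same held for 1 of 22 mesenchymal effectors and 1 of 14 skeletal lineage genes, against 2.57% of all protein-coding genes. No relative, epithelial gene or myoblast marker had one.

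**Figure D5:**
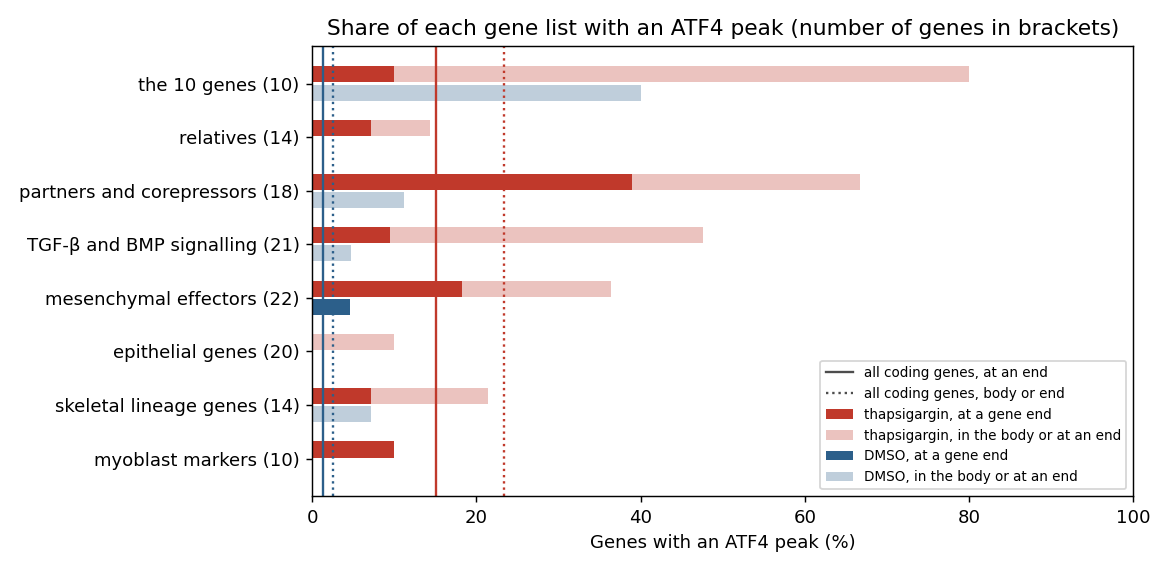
Percent of genes with an ATF4 peak at a gene end (solid bars) and in the body or at an end (pale bars) in thapsigargin (red) and DMSO (blue), for the 10 genes and 7 lists; vertical lines give the shares over all protein-coding genes (15.1% and 23.4% in thapsigargin, 1.29% and 2.57% in DMSO). The 10 genes, picked with their peaks known, have 10.0% at ends, and 8 of 10 with the body included.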

How the data were processed

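CUT&Tag was done with a Vazyme kit, per the labels' protocols. The deposited ATF4 lists give chromosome, start and end of each peak, with no height or score, and were matched to the treatments by their names. Trim Galore 0.6.10, Bowtie2, MACS2 2.2.7.1 and the build mm10 appear, without roles, in the record, per the submitters' processing notes. Of the threshold, the control and the way replicates were joined nothing is stated there, and the depth is unknown.

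Gene positions (RefSeq, GRCm38.p6; protein-coding, chromosomes 1 to 19 and X) carry no strand or exons; starts, strands and promoter sequences came from RefSeq's promoter table. Peaks were placed by their centre and overlapped from 1 bp. Genes of like length were those within a factor of 2, with the gene itself included. The counts over all protein-coding genes include the 10 genes. Coordinates count from 1. Members and lists were chosen with earlier results of these data known, and no test was made. All 10 genes were named, with the widest thapsigargin peak per class, every DMSO peak, and up to 6 genes per list in order of width, with 1 named beyond that. Counting was tested on simulated data. The work used pandas 2.3.3 and numpy 2.4.6 under Python 3.11.15, matplotlib 3.10.9 for plots and scipy 1.17.1 for intervals.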

Additional observations from a re-analysis of the deposited data

How the results depend on the processing

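No paired analysis was possible because each treatment has 1 list, and no replicate could be left out. Of 66 alternative values, 50 stayed within 1.5 times of the value reported, among them every DMSO count at a gene end, which was 0 throughout. Some of the 50 could not move, so their number is no measure of stability. A count of 0 stays 0 under a stricter setting. Merging peaks up to 500 bp apart joined none inside these genes, where the smallest gap was 1.22 kb. Thapsigargin peaks were at an end of 1 gene, but of 0 with a limit of 500 bp and of 3 with 5 kb (Snai2, Runx2 and Loxl2). With annotated starts of the 7 genes in the promoter table in place of gene ends the count was also 1, but the gene was Runx1. The 33 thapsigargin peaks were 17 with bodies and ends only and 19 among peaks at or above the median width, and the 6 DMSO peaks were 3 among those. The 6 overlapping peaks of each list were 3 among peaks at or above the median width, and 1 with centres within 100 bp (Prrx1). Apart from the 5 kb limit and the annotated starts, these alternatives allow fewer peaks or matches by construction. For single genes, 7 of 30 values moved further than 1.5 times. All of them were lower, since the settings used there can only keep, join or drop peaks.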
